A study of Mus musculus with 32 samples.

Results

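The 9 genes described here are *Cilp*, *Htra4*, *Mustn1*, *Klf5*, *Cpne2*, *Anxa7*, *Igfn1*, *Pdzd3* and *Cd101*, taken by symbol from a table of 54838 genes. They were chosen by their expression at P14, as genes that were higher early in *Mtm1* KO than in WT muscle. The rule had no numerical threshold. The values at P14 are therefore given only as a description, and tests were made at P1, P21 and P35. A choice of early risers may leave out genes already higher in KO at P1. The P1 results and the interactions of P21 with P1 are therefore not independent of the choice. Earlier results of these data were also known when the genes were chosen. RNA was sequenced from skeletal muscle, which the study names as the tibialis anterior (TA), of mice on the C57BL6/J background. The 32 libraries comprised 4 of each genotype at every age, namely P1, P14, P21 and P35 (days after birth). The KO carries a germline deletion in exon 4 of *Mtm1* on the X chromosome, which affects every tissue and not muscle alone, and no treatment or other allele is named for either genotype. Expression is given as CPM (counts scaled to a common library size) after TMM normalisation over all 32 libraries, as mean±SD with n=4 libraries per group.

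MTM1 (myotubularin) is a phosphatase that removes a phosphate from phosphoinositides of endosomal membranes, and its loss causes X-linked myotubular myopathy, in which muscle fibres stay small and weak. The 9 genes belong to no single pathway. *Cilp* and *Htra4* encode secreted proteins, *Mustn1* and *Klf5* encode nuclear proteins, *Cpne2* and *Anxa7* encode proteins that bind membrane phospholipids when calcium rises, and *Igfn1*, *Pdzd3* and *Cd101* encode a sarcomeric protein, a scaffold and a receptor-like surface protein.

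Library totals ran from 49321035 to 85631408 expected counts. *Mtm1* itself was at 18.9 to 24.9 CPM in WT libraries from P14 on and at 2.64 to 4.51 CPM in KO libraries, which did not overlap. At P1 the WT libraries were between 5.26 and 6.02 CPM and the KO libraries between 2.32 and 3.91 CPM, and the highest of these KO values, replicate 4, stood above the others (2.32 to 2.45 CPM). All 10 muscle fibre markers were detected in every library, with a summed level of 18329 to 36945 CPM at P1 and 80465 to 212705 CPM later. In these bulk samples, a change in the number of cells of a type and a change in RNA per cell cannot be told apart.

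Promoters are shown for *Cilp* and *Cpne2*, which had the largest log2 fold changes at P21 and P35, and for *Mustn1*, which had the highest level per kilobase in KO at P35. The sequences are from RefSeq (GRCm38.p6), upstream of the gene start and on the coding strand, and capitals mark motif matches: CAGCTG, an E-box read by myogenic factors, and ACCACA, the reverse complement of the RUNX motif TGTGGT. *Cilp* is shown from chr9:65264930-65265179, *Mustn1* from chr14:30879007-30879199 and *Cpne2* from chr8:94532778-94532989, all on the + strand. The windows were 250 bases long, and the last 57 of *Mustn1* and 38 of *Cpne2*, which lie inside the annotated gene, are not printed.
Cilp: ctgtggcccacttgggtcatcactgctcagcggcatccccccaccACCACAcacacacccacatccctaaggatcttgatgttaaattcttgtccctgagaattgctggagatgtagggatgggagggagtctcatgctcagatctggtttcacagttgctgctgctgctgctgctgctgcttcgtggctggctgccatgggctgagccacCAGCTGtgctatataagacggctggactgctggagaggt
Mustn1: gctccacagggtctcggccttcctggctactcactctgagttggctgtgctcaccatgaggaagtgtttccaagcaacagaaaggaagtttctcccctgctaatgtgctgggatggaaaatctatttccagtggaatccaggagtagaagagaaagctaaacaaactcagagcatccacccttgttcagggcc
Cpne2: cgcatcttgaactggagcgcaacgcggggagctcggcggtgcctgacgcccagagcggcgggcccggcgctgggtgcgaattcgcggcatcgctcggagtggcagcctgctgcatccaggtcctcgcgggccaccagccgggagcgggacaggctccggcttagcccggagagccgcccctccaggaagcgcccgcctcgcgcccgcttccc
The E-box of *Cilp* began 39 bases and its RUNX match 205 bases before the gene start. RefSeq held promoters for 7 of the 9 genes, and both strands of the 250 bases before each start were searched. The E-box letters were found in 3 of them (*Cilp*, *Igfn1* and *Pdzd3*), against 13% of all 32851 mouse promoters. RUNX letters occurred in 2 (*Cilp* and *Cd101*), against 14.0% of all promoters. No match was found for AP-1 (TGANTCA, in 6.75% of all promoters), MCAT (CATTCC, 12.6%), CArG (1.47%) or MEF2 (2.92%). The whole *Cpne2* window of 250 bases had a GC content of 74.4%, where the median over all promoters was 52.4%. These are matches of letters and not binding sites.

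At P14, all 9 genes had every KO library above every WT library, in the contrast that chose them. The log2 fold changes ran from 0.55 for *Anxa7* to 2.33 for *Cd101*, with a median of 1.24, and ranked from 7 to 322 among 15728 genes tested, so that *Klf5* and *Anxa7* were far from the highest in fold. Of all genes, 3.28% had such separation with KO above WT, and 0.0318% were DEGs (adjusted *P* under 0.01 and a change over 1.5-fold in either direction). *Cilp*, *Htra4* and *Mustn1* were among the 5 DEGs of this age. With the replicate number as a block, the number of DEGs at P14 rose from 5 to 98. Nothing was read from these counts, since the same contrast chose the genes.

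**Figure D1:**
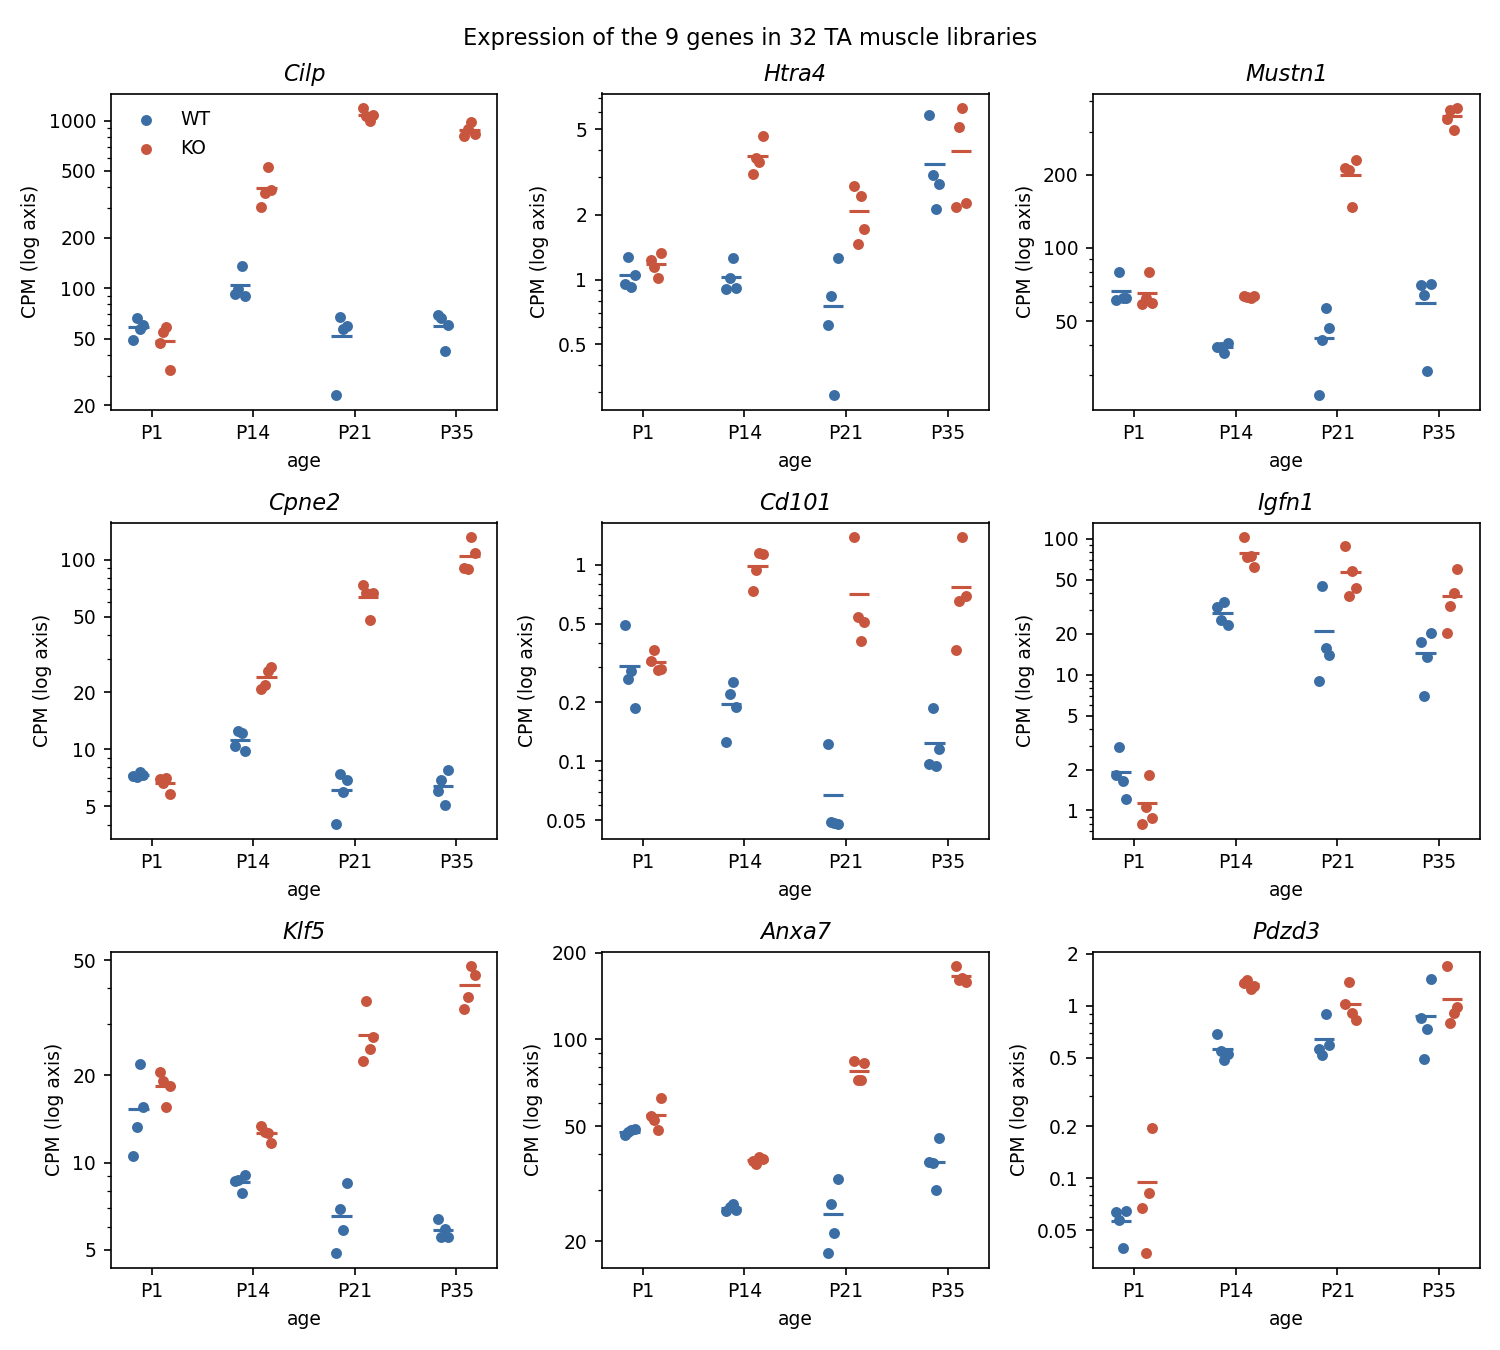
CPM of the 9 genes (log axis, 1 panel per gene) in each of 32 TA muscle libraries, by age, with WT in blue, KO in red and a line at the mean of 4 libraries. *Cilp* KO libraries lie at 305 to 526 CPM at P14 and 999 to 1190 CPM at P21, while WT libraries stay at or under 135 CPM. The genotypes overlap for *Igfn1* and *Pdzd3* at P21 and P35, and for *Htra4* at P35.

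*Cilp* (chr9:65265180-65280605) encodes cartilage intermediate layer protein, a matrix glycoprotein that binds TGF-beta and IGF1. At P14, WT libraries held 92.5, 98.9, 135 and 89.8 CPM and KO libraries 305, 368, 526 and 385 CPM. At P21, WT libraries held 22.9, 67.4, 57.4 and 59.6 CPM, and KO libraries 1190.3, 1066, 999 and 1079 CPM. At P35 the WT values were 68.8, 66.5, 42.4 and 60.4 CPM, and the KO values 808, 888, 983 and 834 CPM. Every KO library was far above every WT library at both ages, a mean of 1083±79.5 against 51.8±19.8 CPM at P21. The log2 fold change was 4.39 (SE 0.31, edgeR adjusted *P*=7.19e-05) at P21 and 3.91 (SE 0.16, adjusted *P*=1.83e-06) at P35. At P1 the groups overlapped (WT 58.3±7.37 CPM, KO 48.2±11.6 CPM, log2 fold change −0.26, SE 0.17, edgeR adjusted *P*=0.612).

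Tendon, cartilage and connective tissue also make *Cilp*. At P21 the summed level of 8 tenocyte markers ran from 29.0 to 743 CPM in WT and from 174 to 1078 CPM in KO, and 0 of 8 were DEGs. The WT library with the least tenocyte marker RNA (replicate 1, 29.0 CPM) was also the one with the least *Cilp* (22.9 CPM). Among KO libraries at P21, the one with the most (replicate 3, 1078 CPM) had the least *Cilp* (999 CPM). The library lowest in both was also shared in WT at P14 (replicate 4, 285 and 89.8 CPM) and P35 (replicate 3, 214 and 42.4 CPM). The same held in KO at P1 (replicate 4, 756 and 32.4 CPM). It was not shared in WT at P1 or in KO at P14, P21 or P35. Of 8 fibroblast markers, 0 were DEGs at P21 or P35, with sums of 4467 to 9033 CPM in WT and 5356 to 11257 CPM in KO at P21. Chondrocyte markers summed to 7.47 to 81.9 CPM in WT and 5.37 to 132 CPM in KO at P21. At P35 the sums were 17.7 to 54.1 and 15.2 to 204 CPM. At both ages 0 of 6 tested were called, with a median log2 fold change of 0.08 at P21 and 1.81 at P35. *Matn1* and *Snorc* were at 0 in all P21 libraries. The part of these cells in the *Cilp* values was not tested.

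*Htra4* (chr8:25024929-25038962, minus strand) encodes a secreted serine protease of the HtrA family. KO libraries held 3.09, 3.69, 3.53 and 4.66 CPM at P14 where WT held 0.904, 1.02, 1.26 and 0.919 CPM. KO values at P21 were 2.72, 1.46, 2.44 and 1.71 CPM, against 0.614, 0.836, 0.290 and 1.26 CPM in WT, without overlap. By P35 WT held 5.82, 3.07, 2.14 and 2.79 CPM and KO held 2.17, 5.12, 6.28 and 2.26 CPM, and the genotypes overlapped. The log2 fold change of 1.48 (SE 0.37) at P21 missed the threshold in edgeR (adjusted *P*=0.022) and passed it in DESeq2 (adjusted *P*=0.00151). At P35 it was 0.23 (SE 0.41, edgeR adjusted *P*=0.691). WT muscle itself rose from P21 to P35 by 2.20 (SE 0.36, edgeR adjusted *P*=0.000166) on the log2 scale, which was lost when only the libraries of these ages entered the fit (adjusted *P*=0.0117). The long noncoding RNA *Gm16933* overlaps *Htra4* on the other strand over 792 exon bases, and its level did not exceed 0.0973 CPM in any library.

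*Mustn1* (chr14:30879200-30881610) encodes a small protein of the musculoskeletal system found in regenerating muscle and bone. At P14 the KO libraries lay within 62.3 to 63.4 CPM and the WT libraries within 37.0 to 40.9 CPM. At P21 the KO values were 213, 208, 148 and 229 CPM against 24.8, 41.9, 56.7 and 46.7 CPM in WT. At P35 the KO values were 338, 367, 306 and 376 CPM against 70.4, 63.9, 31.2 and 71.4 CPM. No library overlapped at either age. On the log2 scale the change was 2.24 (SE 0.24, edgeR adjusted *P*=0.000609) at P21 and 2.57 (SE 0.24, adjusted *P*=0.000113) at P35. At P1 the means were 66.4±9.05 CPM in WT and 65.1±9.86 CPM in KO, so that no difference was detectable (log2 fold change −0.01, SE 0.12, edgeR adjusted *P*=0.976).

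*Klf5* (chr14:99298691-99315036) encodes a Kruppel-like zinc finger transcription factor of proliferating and differentiating cells. In WT muscle its level was highest at P1 (15.3±4.79 CPM) and lower at P14 (8.56±0.503), P21 (6.53±1.55) and P35 (5.85±0.401 CPM). KO libraries went from 11.7 to 13.4 CPM at P14 to 22.4, 36.1, 24.7 and 27.2 CPM at P21 and 33.96, 37.4, 47.7 and 44.4 CPM at P35. Every KO library at P35 thus exceeded every WT library of any age. KO exceeded WT by a log2 fold change of 2.09 (SE 0.20, edgeR adjusted *P*=0.000342) at P21 and 2.83 (SE 0.12, adjusted *P*=1.83e-06) at P35, and 0.28 (SE 0.20, adjusted *P*=0.628) at P1. Epithelium also makes *Klf5*. Keratinocyte markers summed to 1799 to 6576 CPM in P1 libraries of both genotypes and to at most 35.4 CPM later. At P21 their sum was 6.79 to 10.05 CPM in WT and 28.7 to 35.4 CPM in KO, and *Trp63*, 1 of 2 tested of 9, was a DEG and made most of it (27.8 CPM in KO). The defining keratins *Krt5*, *Krt14* and *Krt1* were at or near 0 there, and the part of *Trp63*-expressing cells in the *Klf5* values was not tested. At P1 the library with the highest keratinocyte sum also had the most *Klf5*. This was replicate 3 in WT (6576 and 21.8 CPM) and replicate 1 in KO (5326 and 20.5 CPM). The lowest libraries matched in KO (replicate 3, 1799 and 15.5 CPM) and not in WT. The part of keratinocytes in the P1 values of *Klf5*, and so in comparisons with P1, was not tested.

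*Cpne2* (chr8:94532990-94570531) encodes a copine, a protein that is drawn to membranes by calcium. WT libraries at P21 held 4.004, 7.35, 5.97 and 6.89 CPM, against 73.2, 66.8, 48.2 and 66.9 CPM in KO. At P35 the WT values were 6.03, 6.86, 5.08 and 7.73 CPM, and the KO values 90.0, 89.1, 132 and 108 CPM. The KO libraries were far above WT at both ages, and at P14 they were between the levels of P1 and P21, at 23.9±3.09 CPM against 11.2±1.34 CPM in WT. This gave log2 fold changes of 3.40 (SE 0.20, edgeR adjusted *P*=3.11e-05) at P21 and 4.05 (SE 0.17, adjusted *P*=1.83e-06) at P35, the largest of the 9 genes at P35. At P1 all 4 KO libraries (5.79 to 7.01 CPM) were below all 4 WT libraries (7.09 to 7.58 CPM), as for 4.78% of all genes, though the log2 fold change was only −0.13 (SE 0.08, edgeR adjusted *P*=0.587).

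*Anxa7* (chr14:20455260-20480133, minus strand) encodes annexin A7, which binds phospholipids in the presence of calcium and aids membrane fusion and repair. Its libraries were tight at P14, with 36.9 to 39.0 CPM in KO and 25.4 to 26.9 CPM in WT. At P21 the KO values were 84.5, 72.5, 72.1 and 82.7 CPM against 18.1, 26.8, 21.4 and 32.8 CPM in WT. At P35 the KO values were 179.8, 160.1, 164 and 158 CPM against 37.7, 37.2, 30.2 and 45.7 CPM. Groups were apart at both ages. Log2 fold changes were 1.66 (SE 0.16, edgeR adjusted *P*=0.000389) at P21 and 2.16 (SE 0.12, adjusted *P*=1.14e-05) at P35. At P1, *Anxa7* had the only unadjusted *P* under 0.05 of the 9 genes (0.0295, log2 fold change 0.21, SE 0.08) and did not pass after adjustment (edgeR adjusted *P*=0.394).

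*Mss51*, which encodes a protein of muscle mitochondria, lies 2734 bases upstream of *Anxa7* on the same strand with no shared exon. On the other side *Cfap70* lies 3034 bases away, also on the same strand. *Cfap70* was tested at P1 and P35 and was not a DEG (at P35 1.06 on the log2 scale, SE 0.29, edgeR adjusted *P*=0.0164). *Mss51* was at 5.46±4.02 CPM in WT and 64.4±39.6 CPM in KO at P35 (log2 fold change 3.58, SE 0.64, edgeR adjusted *P*=0.00203), a DEG. At P21 it was at 1.63±2.18 CPM in WT and 23.9±12.4 CPM in KO, and its log2 fold change of 3.88 (SE 0.83) missed the threshold (edgeR adjusted *P*=0.0108). Of the neighbours of *Cd101*, *Ptgfrn*, 10676 bases away on the same strand, was a DEG at P21 (0.86, SE 0.13, edgeR adjusted *P*=0.00236) and P35 (0.68, SE 0.13, adjusted *P*=0.00323). The nearest genes of *Htra4* (*Plekha2*, *Tm2d2*), *Cpne2* (*Nlrc5*, *Fam192a*) and *Mustn1* (*Tmem110*) were not DEGs at any age.

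*Igfn1* (chr1:135953578-136006342, minus strand) encodes an immunoglobulin-like and fibronectin domain protein of the Z-disc. Its WT level was 1.92±0.738 CPM at P1 and 28.5±5.18 CPM at P14. KO libraries held 103, 73.0, 75.1 and 62.6 CPM at P14 against 31.5, 25.2, 34.3 and 23.2 CPM in WT. At P21 the KO values were 89.4, 38.0, 58.0 and 43.8 CPM and the WT values 8.99, 45.2, 15.8 and 14.0 CPM, so that WT replicate 2 lay among the KO libraries. At P35 the KO values were 20.3, 32.1, 40.0 and 59.8 CPM and the WT values 17.3, 6.93, 13.6 and 20.3 CPM, which met at the lowest KO library. The log2 fold change was 1.46 (SE 0.47, edgeR adjusted *P*=0.0542) at P21 and 1.41 (SE 0.37, adjusted *P*=0.0133) at P35, and missed the threshold at both ages. Without WT P21 replicate 2 it was 2.15 at P21 (edgeR adjusted *P*=0.00506), and without KO P35 replicate 1 it was 1.62 at P35 (adjusted *P*=0.00656). At P1 the KO mean was lower, 1.14±0.479 CPM (log2 fold change −0.74, SE 0.33, edgeR adjusted *P*=0.463).

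*Pdzd3* (chr9:44247307-44251471, minus strand) encodes NHERF4, a scaffold with PDZ domains known from kidney and gut. It was at 4 to 22 counts per library at P1 and was not tested at that age. KO libraries lay within 1.25 to 1.41 CPM at P14 and WT within 0.485 to 0.686 CPM. At P21 the groups overlapped, with 0.823 to 1.37 CPM in KO and 0.516 to 0.894 CPM in WT, and at P35 the means were 1.10±0.412 CPM in KO and 0.877±0.398 CPM in WT. The log2 fold change fell short of the threshold at P21 (0.69, SE 0.25, edgeR adjusted *P*=0.0788) and at P35 (0.34, SE 0.36, adjusted *P*=0.469).

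*Cd101* (chr3:100993529-101029556, minus strand) encodes an immunoglobulin superfamily protein of the surface of myeloid and T cells. It was the lowest of the 9 genes by counts in WT at P21, with 2 to 5 counts per library, or 0.123, 0.0492, 0.0483 and 0.0477 CPM. KO libraries at P21 held 1.38, 0.541, 0.410 and 0.511 CPM, replicate 1 being the highest. At P35 the KO values were 0.367, 0.649, 1.38 and 0.695 CPM against 0.0973, 0.187, 0.0950 and 0.115 CPM in WT. Groups did not overlap at either age. The log2 fold change was 3.36 (SE 0.54, edgeR adjusted *P*=0.00321) at P21 and 2.64 (SE 0.46, adjusted *P*=0.0019) at P35. At P21 the sums were 130 counts in KO and 11 in WT, a ratio of 10.5 with a 95% counting interval of 5.66 to 21.5, which covers counting error only. The P21 call was lost without WT P21 replicate 2 (edgeR adjusted *P*=0.0116) or replicate 3 (adjusted *P*=0.0104).

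Markers of the cells known to carry CD101 were measured beside it. Macrophage markers summed to 83.4 to 96.6 CPM in WT and 94.995 to 119 CPM in KO at P21, and 2 of 8 (*Cd68* and *C1qa*) were DEGs, both higher in KO. At P35 the sums were 70.7 to 93.0 CPM and 82.0 to 114 CPM, with 3 of 8 DEGs, *C1qb* in addition. Of all genes, 3.18% were DEGs higher in KO at P21 and 8.49% at P35. Lymphocyte markers summed to at most 1.96 CPM from P14 on in either genotype, and none of the 4 tested at P21 or the 1 tested at P35 was a DEG. Of 7 dendritic cell markers, *Itgax* was a DEG, higher in KO, at P21 (1 of 3 tested) and P35 (1 of 6). At P14, where *Cd101* was at 0.196±0.0542 CPM in WT and 0.986±0.190 CPM in KO, macrophage sums were 93.1 to 106 CPM in WT and 82.7 to 108 CPM in KO. Neutrophil markers summed to 24.2 to 135 CPM in WT and 16.6 to 42.4 CPM in KO at P1, and to at most 3.08 CPM later. At P1 the library with the highest neutrophil sum also had the most *Cd101*. This was replicate 1 in WT (135 and 0.490 CPM) and replicate 2 in KO (42.4 and 0.368 CPM). The lowest libraries matched in KO (replicate 3) and not in WT. The part of any of these cells in the *Cd101* values was not tested.

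Over the 9 genes, the edgeR quasi-likelihood test with Benjamini-Hochberg adjustment called 0 of 8 tested at P1, where 0.0442% of all genes were DEGs. DESeq2 also called 0 at P1, and 1 had an unadjusted *P* under 0.05. The deleted gene *Mtm1* was itself not a DEG at P1 (log2 fold change −0.98, SE 0.17, edgeR adjusted *P*=0.0668). The choice of early risers may itself have left out genes higher in KO at P1. At P21, 6 of 9 were DEGs and all 6 were higher in KO (*Cilp*, *Cpne2*, *Cd101*, *Mustn1*, *Klf5* and *Anxa7*), where 3.18% of all genes were DEGs in that direction. The same 6 were DEGs and higher at P35, where the share of all genes was 8.49%. The median log2 fold change of the 9 genes was 2.09 at P21 and 2.57 at P35, where the medians of all genes tested were 0.01 and 0.04. In 7 of 9 genes at P21 and 6 of 9 at P35, every KO library was above every WT library, against 13.7% and 19.2% of all genes. WT P21 replicate 1 was the lowest of its group for 6 of the 9 genes, and without it 6 were still called at P21. WT P35 replicate 3 was also the lowest for 6 genes, and KO P21 replicate 1 the highest for 6. KO P35 replicate 3 was the highest for 5, while KO P21 replicate 3 and KO P35 replicate 1 were the lowest for 5 each. With any single library left out, 5 to 6 genes were called at P21 and 6 to 7 at P35. With libraries scaled by their totals, the DEGs at P21 were split into 1052 higher and 105 lower in place of 482 and 227, and at P35 into 4350 and 326 in place of 1324 and 1172, while 7 of the 9 genes were called at both ages.

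**Figure D2:**
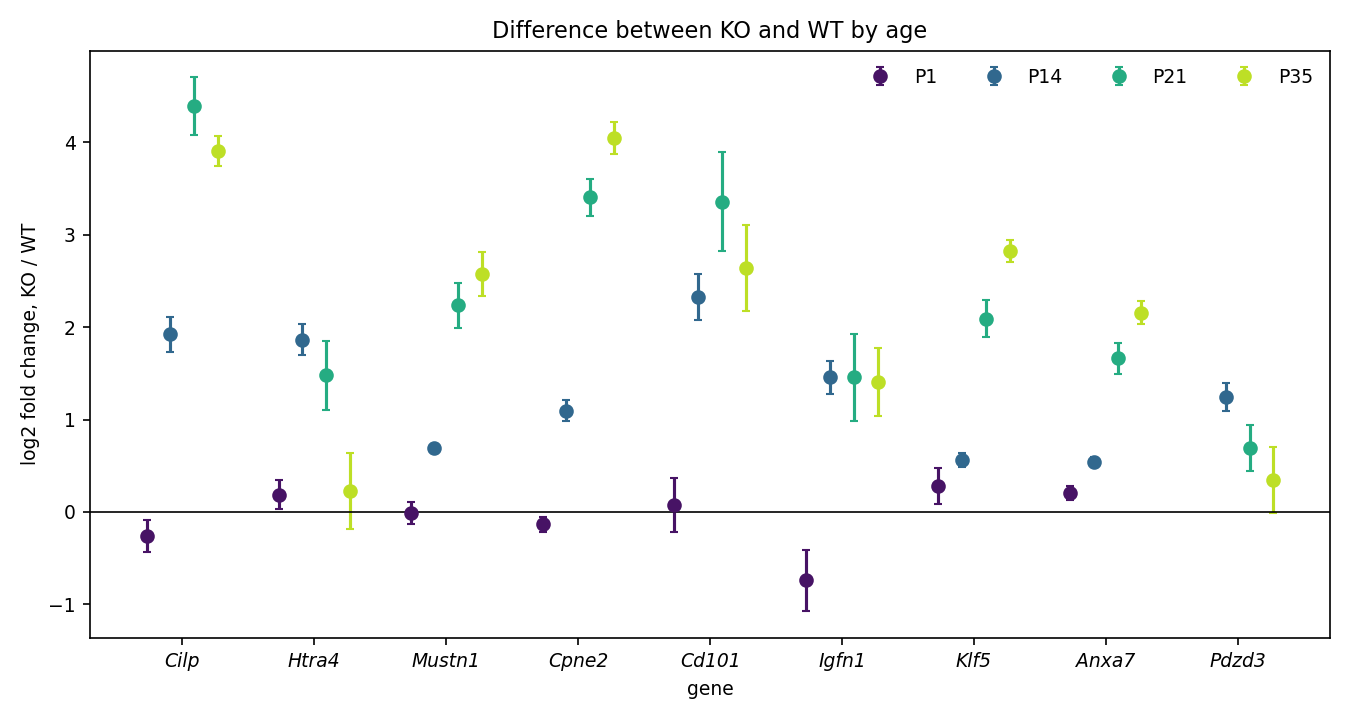
Log2 fold change of KO over WT (points, with bars of 1 SE from edgeR) for each of the 9 genes at 4 ages, with no point for *Pdzd3* at P1. *Cilp* is at 1.92, 4.39 and 3.91 at P14, P21 and P35 and *Cpne2* at 1.09, 3.40 and 4.05, while *Htra4* goes down from 1.86 at P14 to 0.23 at P35.

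Whether the difference between genotypes changed with age was tested as an interaction over all 32 libraries. Between P1 and P21 it grew for 6 of 9 genes, where 2.08% of all genes had an interaction of that sign. This comparison is not independent of the choice of genes that rose after P1. The interaction was 4.66 (SE 0.33, edgeR adjusted *P*=2.31e-10) for *Cilp*, 3.54 (SE 0.22, adjusted *P*=1.56e-11) for *Cpne2* and 3.30 (SE 0.62, adjusted *P*=0.00106) for *Cd101* on the log2 scale. It was 2.26 for *Mustn1*, 1.82 for *Klf5* and 1.46 for *Anxa7*, with adjusted *P* of 8.23e-06, 1.59e-05 and 2.80e-06 in edgeR. *Igfn1* (2.21, SE 0.60, edgeR adjusted *P*=0.0217), *Htra4* (1.29, SE 0.49, adjusted *P*=0.112) and *Pdzd3* (−0.06, SE 0.43, adjusted *P*=0.970) did not pass. Without WT P21 replicate 2 the *Igfn1* interaction was 2.91 and passed (edgeR adjusted *P*=0.000983), as it did with all libraries in DESeq2 (adjusted *P*=0.00762) and with library totals (edgeR adjusted *P*=0.00989).

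Between P21 and P35, 0 of 9 genes passed the interaction test, where 0.463% of all genes did, and DESeq2 also called 0. Unadjusted *P* was under 0.05 for 4 genes, *Klf5* (0.72, SE 0.24), *Cpne2* (0.63, SE 0.22) and *Anxa7* (0.48, SE 0.17), whose difference was larger at P35, and *Htra4* (−1.27, SE 0.48), whose difference was smaller. Their edgeR adjusted *P* values ran from 0.111 to 0.162, so that a change in the difference between these ages was not shown at this number of libraries. For *Cilp* the value was −0.50 (SE 0.32, edgeR adjusted *P*=0.434).

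In WT muscle alone, 6 of 9 genes differed between P1 and P21, where 59.7% of all genes did (26.4% higher and 33.2% lower at P21). *Igfn1* (3.46, SE 0.44, edgeR adjusted *P*=4.93e-08) and *Pdzd3* (3.47, SE 0.39, adjusted *P*=5.79e-09) were higher at P21. Without WT P21 replicate 2 (45.2 CPM, the others at 8.99 to 15.8 CPM) the *Igfn1* change was 2.76. *Cd101* (−2.16, SE 0.50), *Klf5* (−1.23, SE 0.17), *Anxa7* (−0.95, SE 0.12) and *Mustn1* (−0.64, SE 0.20) were lower at P21, with edgeR adjusted *P* values from 5.18e-08 to 0.00428. The part of keratinocytes in the *Klf5* change and of neutrophils in the *Cd101* change was not tested. The *Mustn1* call was lost without WT P1 replicate 2 (edgeR adjusted *P*=0.021), WT P21 replicate 1 (0.0277) or WT P21 replicate 2 (0.0106). When libraries were scaled by their totals, the median of all genes moved from −0.13 to −1.08 and all 9 genes were called, 7 of them lower, so these changes are relative to the bulk of expressed genes. From P21 to P35, *Htra4* and *Anxa7* were higher in WT, 2 of 9 where 2.23% of all genes were higher. The *Anxa7* change of 0.60 (SE 0.12, edgeR adjusted *P*=0.00105) fell under the fold threshold without WT P21 replicate 1 (0.48), WT P21 replicate 3 (0.54) or WT P35 replicate 4 (0.50). Without WT P35 replicate 3, *Mustn1* was called as well (0.69, edgeR adjusted *P*=0.00582).

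Levels were compared between genes only per kilobase of exon. In WT at P35, *Mustn1* was the highest (47.9 CPM per kb), followed by *Cilp* (14.0), *Anxa7* (6.29), *Cpne2* (2.01), *Igfn1* (1.62), *Htra4* (1.44), *Klf5* (1.13), *Pdzd3* (0.400) and *Cd101* (0.0372). In KO at P35 the order was *Mustn1* (280.5), *Cilp* (206.5), *Cpne2* (32.7), *Anxa7* (27.6), *Klf5* (7.86), *Igfn1* (4.23), *Htra4* (1.65), *Pdzd3* (0.499) and *Cd101* (0.232 CPM per kb). Neighbours in these orders whose libraries overlapped were *Cpne2* with *Igfn1*, *Igfn1* with *Htra4* and *Htra4* with *Klf5* in WT, and *Cpne2* with *Anxa7*, *Klf5* with *Igfn1*, *Igfn1* with *Htra4* and *Pdzd3* with *Cd101* in KO. At P14 in the KO, *Cilp* (93.1 CPM per kb) stood above *Mustn1* (51.0).

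Relatives and partners of the 9 genes were counted in the same fits. Of all genes, 3.18% were DEGs higher in KO at P21 and 8.49% at P35, and 1.5% and 7.52% were lower. The TGF-beta list holds ligands, receptors, SMADs, latency proteins and matrix regulators, since CILP binds TGF-beta. It had 3 of 30 genes higher (*Ltbp1*, *Postn* and *Bgn*) and 0 lower at P21, and 9 higher and 1 lower at P35, with medians of 0.39 and 0.31 against 0.01 and 0.04 over all genes. At P35 the ligand *Tgfb3* was higher in KO (0.92 on the log2 scale, SE 0.13, edgeR adjusted *P*=0.000725). *Smad3*, which carries the signal to the nucleus, was lower (−1.11, SE 0.13, edgeR adjusted *P*=0.000293). The other 3 HtrA proteases, *Htra1*, *Htra2* and *Htra3*, were not DEGs at any age, and their log2 fold changes lay between −0.22 and 0.38.

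Among the annexins other than *Anxa7*, which was chosen for its rise, 2 of 8 tested were higher in KO at P21 and 5 of 9 at P35, with none lower and medians of 0.54 and 0.69. *Anxa4* was at 10.3±1.501 CPM in WT and 35.9±6.38 CPM in KO at P21 and at 13.8±1.98 and 75.6±12.8 CPM at P35 (log2 fold change 2.48, SE 0.14, edgeR adjusted *P*=1.26e-05). *Anxa1* (1.33, SE 0.09, edgeR adjusted *P*=3.94e-05) and *Anxa2* (1.46, SE 0.13, adjusted *P*=9.34e-05), which take part in membrane repair, were DEGs at P35 and not at P21. In contrast, *Cpne2* was the only DEG among 5 copines tested at P21 and at P35. The abundant relatives *Cpne1* (−0.17, SE 0.13) and *Cpne3* (−0.27, SE 0.09) had edgeR adjusted *P* values of 0.326 and 0.0470 at P35.

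Of 17 Kruppel-like factors, 15 were tested after P1, and *Klf5* was the only DEG at P21. At P35, 4 were higher and 1 lower. Besides *Klf5* and *Klf10* these were *Klf14* (2.29, SE 0.37, edgeR adjusted *P*=0.00125), *Klf16* (0.82, SE 0.17, adjusted *P*=0.00497) and, lower, *Klf9* (−0.59, SE 0.13, adjusted *P*=0.00580), a glucocorticoid-responsive factor that was higher in KO at P1 (0.89, SE 0.08, adjusted *P*=0.00394). AP-1 factors, which answer to stress and growth signals, were tested for 9 of 10 members. At P21, 1 was higher (*Fosl1*, 0.0121±0.0140 CPM in WT and 1.51±0.142 CPM in KO), and at P35, 8 were higher and none lower. *Junb* was at 7.27±1.02 CPM in WT and 46.9±5.18 CPM in KO at P35 (2.72, SE 0.12, edgeR adjusted *P*=1.99e-06), and *Atf3* at 4.81±1.71 and 30.2±6.87 CPM (2.68, SE 0.27, adjusted *P*=0.000148).

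Sarcomeric proteins with immunoglobulin or fibronectin domains, the relatives of *Igfn1*, were lower rather than higher for most DEGs. Without *Igfn1*, 0 of 16 tested were higher and 1 lower (*Mybpc2*) at P21, and 1 was higher and 5 lower at P35. *Myom3*, an M-band protein, was higher at P35 (3.0, SE 0.46, edgeR adjusted *P*=0.000993), and *Myom1*, also of the M-band, was lower (−0.60, SE 0.10, adjusted *P*=0.00149). For *Pdzd3*, the NHERF relative *Slc9a3r2* was lower at P35 (−0.68, SE 0.13, edgeR adjusted *P*=0.00320), and *Slc9a3r1* did not pass (0.18, SE 0.15, edgeR adjusted *P*=0.365).

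**Figure D3:**
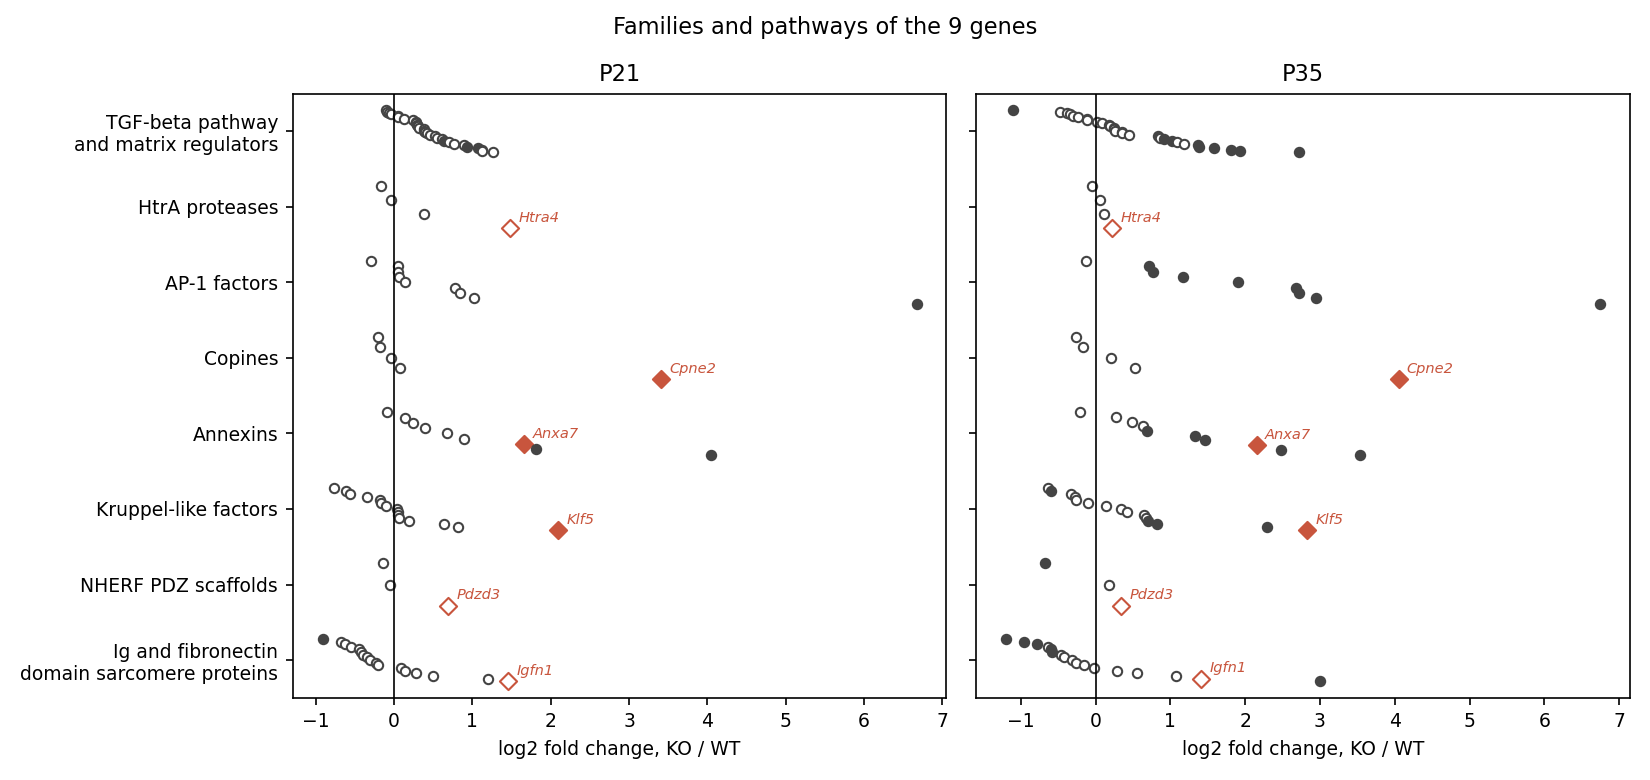
Log2 fold change of KO over WT at P21 and P35 for the tested genes of 8 lists (circles, with named diamonds for the 6 of the 9 genes that are on these lists), filled where the gene was a DEG. Annexins (6 of 10, *Anxa7* included) and AP-1 factors (8 of 9) are mostly filled at P35, while *Cpne2* is the only filled copine. The AP-1 point beyond 6 is *Fosl1*, which was almost absent in WT, so its position depends on the prior count.

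The genes whose course over the 32 libraries was most like each of the 9 were found by the root mean square (RMS) difference of log2 CPM centred on each gene's mean. *Eda2r*, which encodes a receptor of the TNF family, was the nearest to both *Cilp* (RMS 0.39) and *Cpne2* (0.36). Its mean level went from 18.5 CPM in WT and 57.2 CPM in KO at P14 to 7.49 and 170.2 CPM at P21 and 12.7 and 180.2 CPM at P35. *Anxa4* was the nearest to *Anxa7* (RMS 0.24) and the next after *Osbpl3* (0.26) for *Klf5* (0.32). For *Mustn1* it was *Tnfrsf23* (0.38), followed by *Col8a1* (0.43) and *Tspo* (0.44).

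The other 4 genes had no such close counterpart, the nearest being *Runx1* for *Cd101* (RMS 0.71), *2610035D17Rik* for *Htra4* (0.67), *Rasl2-9* for *Pdzd3* (0.56) and *Gm14029* for *Igfn1* (0.87). Among the 9 themselves, the smallest differences were between *Mustn1* and *Anxa7* (RMS 0.40), *Klf5* and *Anxa7* (0.42) and *Cilp* and *Cpne2* (0.50), and the largest between *Igfn1* and *Klf5* (2.30). All of these values rest on the same libraries that show the difference between genotypes, and low counts add to the RMS of *Cd101* and *Pdzd3*.

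**Figure D4:**
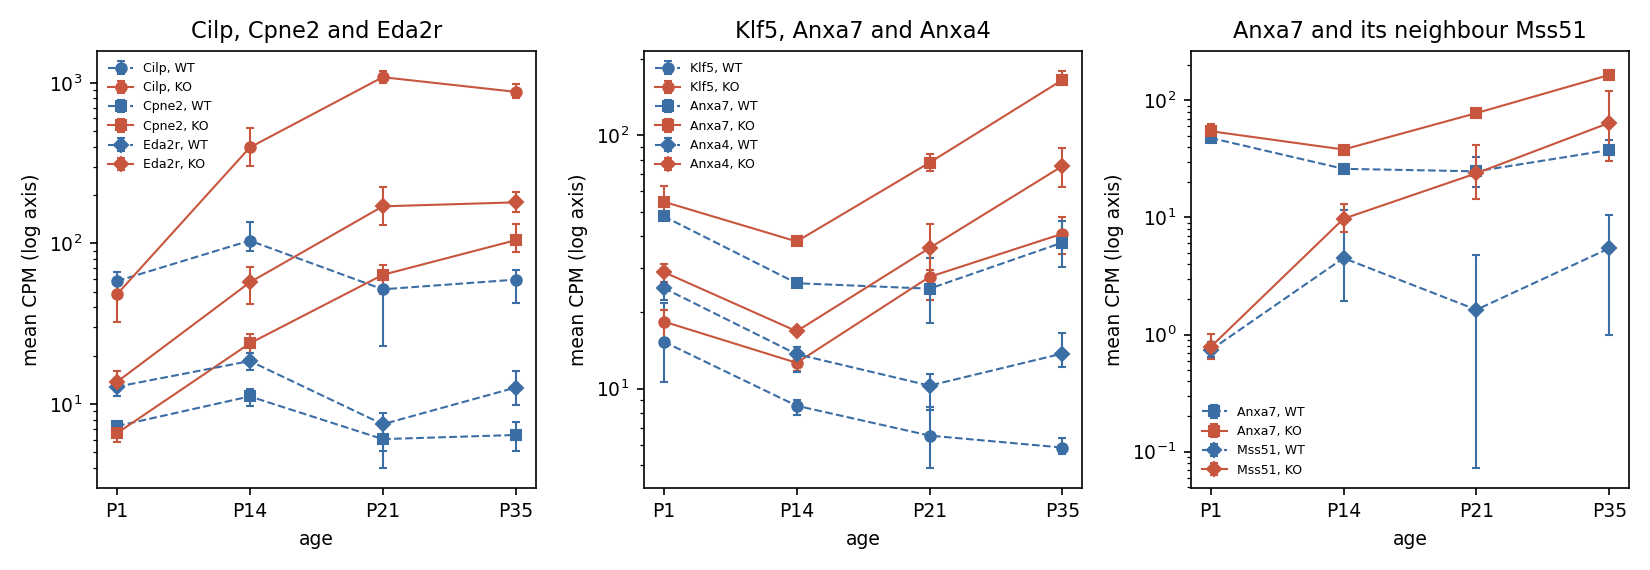
Mean CPM (log axis) by age in WT (blue, dashed) and KO (red, solid), with bars from the lowest to the highest of 4 libraries, for *Cilp*, *Cpne2* and *Eda2r*, for *Klf5*, *Anxa7* and *Anxa4*, and for *Anxa7* and its neighbour *Mss51*. *Cilp*, *Cpne2* and *Eda2r* rise in KO from P1 to P21, whereas *Klf5*, *Anxa7* and *Anxa4* are lower at P14 than at P1 in both genotypes and then rise in KO.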

How the data were processed

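The authors isolated poly(A) RNA, made directional libraries and, per the labels, aligned reads to GRCm38 with STAR 2.6.1 and counted them with RSEM 1.2.22, while the paper's methods name HTSeq. The annotation release and the strand setting of the counting are not given in the sources used here. The deposited table holds unscaled expected counts per gene and library, and 0 columns of values were left unused. Expected counts were rounded. They are read counts without molecular identifiers, so PCR copies are counted too and the intervals given speak for counting error alone. A count of 0 allows up to 3 counts.

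Groups came from the labels, 4 libraries each. Nothing in the labels says whether libraries of a group came from separate mice, so *P* values measure the spread between libraries. Within each age, genes passing filterByExpr were scaled by TMM and compared by the two-sided quasi-likelihood test of edgeR 4.0.16 in R 4.3.3, with *P* values adjusted by Benjamini and Hochberg over the 15179 to 18100 genes tested. Interactions and WT ages were contrasts in 1 fit of all 32 libraries (18583 genes), and interactions were called on adjusted *P* alone. SE is the absolute log2 fold change divided by the square root of *F*. Fits were tested on simulated data. Symbols and coordinates are from GENCODE M21 (GRCm38).

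The 9 genes and the family and marker lists were chosen with earlier results of these data known. Genes named besides the 9 were, per list, up to 3 DEGs at P21 or P35 with the smallest adjusted *P* at P35, the 3 genes nearest in course (here in part), and neighbours, and 2 genes that this rule names are not reported here. Relatives named without being DEGs, *Klf9* at P1 and single markers were chosen after their values were seen. Alternatives were DESeq2 1.42.0, other scaling (RLE, library totals), other filters (none, or at least 10 counts in every library), unrounded counts, other libraries in the fit, the replicate number as a block, and leaving out each library. Same-numbered WT and KO libraries deviated together at P14 (*r* 0.30 to 0.73 for the 4 pairs) and not at P1 (−0.33 to 0.01). At P21 (−0.06 to 0.29) and P35 (−0.10 to 0.24) the pairs were mixed. The lowest value at P14 was close to the highest at P21, and libraries of unlike number were not compared. The numbers may therefore pair libraries at P14, but the P14 values given are from the fit without that block.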

Additional observations from a re-analysis of the deposited data

Results flagged for a closer look

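Among 72 groups of 4 libraries (9 genes in 8 groups), 3 held a library far from the other 3 by Dixon's test, near the 1 in 20 that chance gives. For *Mustn1* in WT at P1, replicate 2 stood at 79.9 CPM with the nearest library at 62.2 CPM. *Cd101* in WT at P21 reached 0.123 CPM in replicate 1 with the nearest library at 0.0492 CPM, a matter of 5 counts against 2. *Cd101* in KO at P21 reached 1.38 CPM in replicate 1, and the nearest library was at 0.541 CPM.

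The difference between KO and WT was larger at P21 than at P1 by the interaction test for 6 genes. On the log2 scale the change was 4.66 for *Cilp*, 2.26 for *Mustn1*, 3.54 for *Cpne2*, 3.30 for *Cd101*, 1.82 for *Klf5* and 1.46 for *Anxa7*. The rise at P14 chose these genes, so these values have no weight as a discovery of them.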

How the results depend on the processing

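Of 1204 comparisons of single genes with an alternative setting, 1145 were rated the same. Outside P14 this meant the same direction and the same side of the threshold. At P14, where no call was read, the rating did not follow the calls, of which 1 to 4 over all genes were left without single libraries. The counts of the 9 genes called at P1, P21 and P35 and in the interactions stayed within 1.5 times of the values reported under every alternative (5 to 7 at P21 and P35). In WT from P21 to P35, 2 became 1 with library totals and 0 with only the ages compared, and 1 to 3 without single libraries. *Igfn1* at P35 passed under DESeq2, library totals, no filter, all 32 libraries in 1 fit and the replicate block (adjusted *P* 0.00211 to 0.00865), and *Htra4* at P21 under DESeq2, library totals and all 32 libraries (0.00151 to 0.00873).

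The number of DEGs moved more. At P1 it was 8, 93 with DESeq2, 14 without a filter, 2 with all 32 libraries in 1 fit, 2 with the replicate block and 0 to 15 without single libraries. At P14 it was 5, 53 with DESeq2, 10 without a filter, 98 with the replicate block and 1 to 4 without single libraries. Library totals gave 1157 in place of 709 at P21 and 4676 in place of 2496 at P35, with the median of all genes shifted to 0.20 and 0.44. Without single libraries the P21 count was 417 to 626. The interaction of P35 with P21 had 86 genes, 325 with DESeq2, 53 without a filter, 9 with only the ages compared, 156 with the replicate block and 37 to 116 without single libraries. That of P21 with P1 had 502, 852 with DESeq2, 918 with library totals and 314 to 517 without single libraries. WT P35 against P21 had 744, 368 with only the ages compared and 467 to 748 without single libraries. The cause of these shifts was not tested. The block changed the call of no other of the 9 genes at P1, P21 or P35.

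Values near 0 changed sign. These were *Mustn1* at P1 (0.0151 with library totals, −0.13 to 0.0774 without single libraries), *Cd101* at P1 (−0.11 to 0.40), *Htra4* at P35 (−0.10 to 0.59), the P35 interaction of *Igfn1* (0.18 with library totals, −0.76 to 0.24) and the P21 interaction of *Pdzd3* (0.052 with library totals, 0.0204 with the replicate block, −0.33 to 0.54). In WT they were *Cilp* from P1 to P21 (−0.32 to 0.0762) and, from P21 to P35, *Cilp* (−0.0459 to 0.35), *Cpne2* (−0.067 to 0.19) and *Igfn1* (−0.78 to 0.17). With 2 to 5 counts of *Cd101* per WT library at P21, and 4 to 22 of *Pdzd3* per library at P1, depth limits both.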

Other observations

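Other cell type lists moved with genotype as follows, given as values only. Over all genes, 1.5% were DEGs lower in KO at P21 and 7.52% at P35, and 3.18% and 8.49% were higher. Muscle fibre markers had 0 of 10 DEGs at P21 and 2 of 10 lower at P35 (*Acta1* and *Pygm*), with a median log2 fold change of −0.64 at P35. Satellite cell and myoblast markers had 1 higher (*Myog*) and 2 lower (*Pax7* and *Calcr*) of 7 at P21 and at P35. Smooth muscle and pericyte markers had 2 of 8 lower (*Rgs5* and *Notch3*) and endothelial markers 2 of 7 lower (*Cdh5* and *Tek*) at P35. Neutrophil markers (7 tested at P1, 2 at P21 and 1 at P35) had 0 DEGs and summed to at most 3.08 CPM after P1. The mitochondrially encoded share of counts was 9.75% to 11.99% in WT and 8.21% to 8.78% in KO at P21, and 12.4% to 17.9% and 10.3% to 10.5% at P35.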
